A study of Mus musculus with 4 samples.

Results

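The Toll-like receptors Tlr1 to Tlr9 were examined in 2 subsets of mouse common lymphoid progenitors (CLP), bone marrow cells from which the B, T and natural killer lineages and part of the dendritic cells arise. The members were all probe sets of the Affymetrix MOE430_2 array that the platform annotation assigns to 1 gene with one of these 9 symbols. This gave 15 probe sets out of 34945 assigned to 1 gene, and all 9 receptors out of 18193 genes were represented. Tlr4 had 4 probe sets, Tlr7 had 3, Tlr3 had 2 and the other 6 receptors had 1 each. The groups were CLP_RAGhigh and CLP_RAGlow, with 2 arrays each. Both came from bone marrow of C57Bl6 mice aged 8 to 12 weeks, and each array used RNA of 2000 sorted cells. The fractions were sorted as GFP high or GFP low per the labels, which describe neither the reporter allele nor any treatment. The replicates are labelled biological without being tied to separate animals or sorts, and p-values here reflect the spread between these 4 arrays alone.

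Toll-like receptors are membrane proteins that bind conserved molecules of microbes and signal through a cytoplasmic TIR domain. Those on the cell surface bind mainly lipids and proteins of bacteria, while those in endosomes bind nucleic acids. Most of them recruit the adaptor Myd88, Tlr3 uses Ticam1, and Tlr4 uses both, and the pathways end in NF-kappaB and interferon regulatory factors. Haematopoietic progenitors of mice are known to carry some of these receptors, and stimulation of lymphoid progenitors through them has been linked to a shift from B-cell to dendritic cell output.

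RefSeq promoter windows on build GRCm38.p6, from 250 bases before to 50 bases after a transcript start, were found for 7 of the 9 receptors, in 9 windows. Tlr4 and Tlr7 had no entry. Sequence is shown for Tlr2 and Tlr9, the receptors with such a window whose probe sets lay above background on all arrays. Capitals mark matches to 3 motifs, which were chosen after the windows had been read. They are the octamer ATGCAAAT, the AP-1 site TGACTCA and GGAATTCC, the palindromic core of an NF-kappaB site, searched on both strands, and the matches do not overlap. For Tlr9 the 250 bases before the start are given, at chr9:106222348-106222597 on the plus strand. For Tlr2 a stretch of 30 bases is given, at chr3:83841761-83841790 on the minus strand.
Tlr9: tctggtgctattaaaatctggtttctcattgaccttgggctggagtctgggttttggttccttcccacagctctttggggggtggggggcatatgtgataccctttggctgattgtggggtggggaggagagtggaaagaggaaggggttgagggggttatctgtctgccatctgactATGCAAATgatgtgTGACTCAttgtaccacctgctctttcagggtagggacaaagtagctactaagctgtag
Tlr2: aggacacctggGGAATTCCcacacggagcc
In Tlr9 the octamer began 72 bases and the AP-1 site 58 bases before the start, and in Tlr2 the NF-kappaB core began 171 bases before it. Among all 32851 windows of the table, 1.74% held the octamer, 5.2% the AP-1 site and 0.478% the NF-kappaB core. Each motif was found in 1 of the 9 receptor windows.

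The first question was which receptors gave a signal above background in these progenitors. Tlr2, Tlr7 and Tlr9 did so on all 4 arrays, and Tlr1, Tlr3 and Tlr8 on none. The deposited values carry no detection calls, so the background was taken from 80 probe sets of 71 olfactory and vomeronasal receptor genes, a set not expected in bone marrow. Their 95th percentile on each array, on the log2 scale, was between 4.10 and 4.21, and a probe set above it on both arrays of a group is called above background in that group. By this measure 3 of the 9 receptors were above background in both groups with their brightest probe set, where 54% of all 18193 genes were, and 3 were above it on no array, where 35.2% of all genes were. Of the 15 probe sets, 3 were above the bound on 4 arrays, 3 on 3 arrays, 1 on 2 arrays, 1 on 1 array and 7 on 0 arrays. Brightness is not compared between probe sets, since each set binds its target with its own efficiency. In RNA from sorted cells, fewer positive cells and less RNA per cell cannot be told apart.

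**Figure D1:**
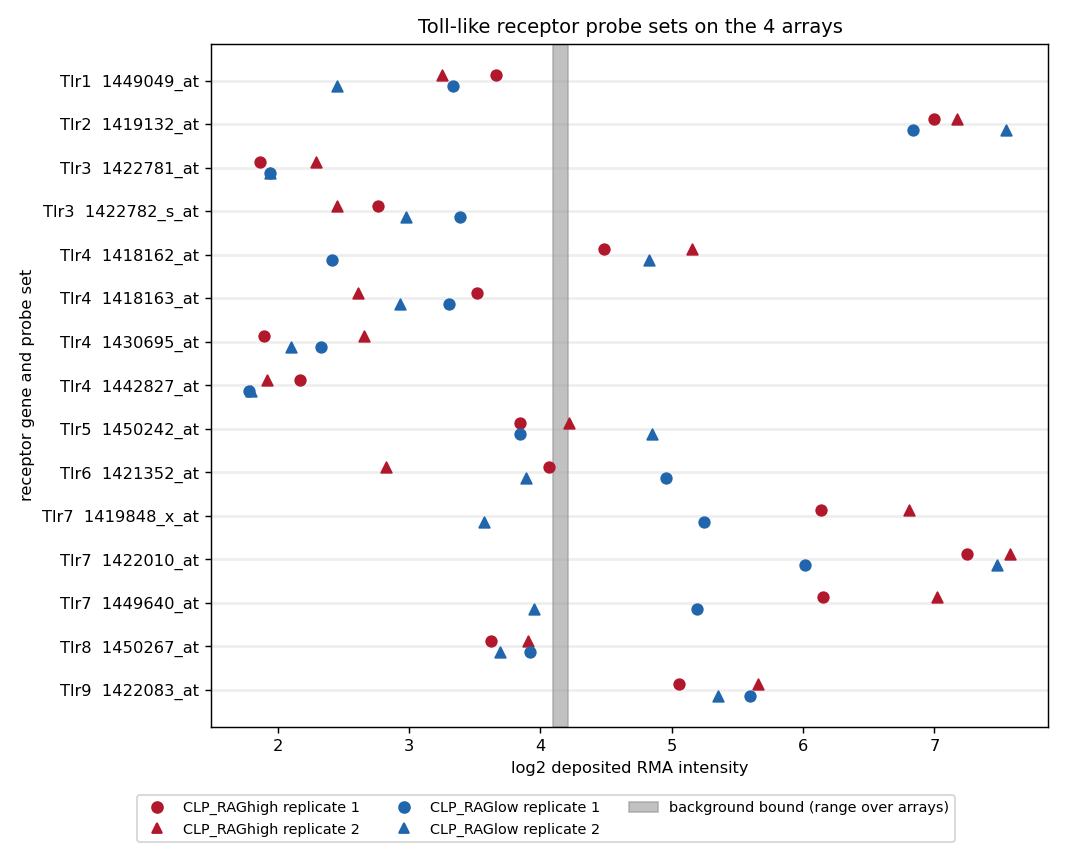
Log2 deposited intensity (horizontal axis) of the 15 Toll-like receptor probe sets (rows) on each of the 4 arrays, with CLP_RAGhigh in red and CLP_RAGlow in blue. The grey band is the range over arrays of the background bound, 4.10 to 4.21. Tlr2, Tlr9 and probe set 1422010_at of Tlr7 lie to its right on every array.

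Among the surface receptors, Tlr2, which pairs with Tlr1 or Tlr6 to bind bacterial lipopeptides, had log2 intensities of 7.00 and 7.17 on the CLP_RAGhigh arrays and 6.83 and 7.54 on the CLP_RAGlow arrays. The CLP_RAGhigh values lay between those of CLP_RAGlow. Its difference, given here and below as CLP_RAGhigh minus CLP_RAGlow on the log2 scale, was -0.10 ± 0.40 (SE, n = 2 per group), with a 95% interval from -1.09 to 0.88. Over all genes its limma adjusted p was 1.

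The partners of Tlr2 were above background in neither group. Tlr1, which with Tlr2 recognises triacylated lipopeptides, had values of 3.66 and 3.25 in CLP_RAGhigh and 3.33 and 2.45 in CLP_RAGlow, below the bound on every array. Tlr6, which with Tlr2 recognises diacylated lipopeptides, had values of 4.06 and 2.82 in CLP_RAGhigh and 4.96 and 3.89 in CLP_RAGlow, and CLP_RAGlow replicate 1 alone exceeded the bound. The arrays of the groups overlapped for both receptors. Tlr1 differed by 0.57 ± 0.34 and Tlr6 by -0.98 ± 0.54, and with an offset of 32 added before log2, which damps differences near the background, these became 0.12 and -0.32. When 1 array was left out, Tlr1 ranged from 0.12 (without CLP_RAGlow replicate 2) to 1.01 and Tlr6 from -1.60 to -0.36 (without CLP_RAGhigh replicate 2). Both had a limma adjusted p of 0.979. The genes are adjacent on mouse chromosome 5 in the RefSeq annotation, with 0 genes between them.

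Tlr4, the receptor of bacterial lipopolysaccharide, was measured by 4 probe sets that did not behave alike. The brightest, 1418162_at, had values of 4.48 and 5.16 in CLP_RAGhigh and 2.42 and 4.83 in CLP_RAGlow. CLP_RAGlow replicate 1 was thus the low array, and the other 3 were above background. The difference was 1.20 ± 0.78, with a 95% interval from -0.74 to 3.13 and a limma adjusted p of 0.983. Without CLP_RAGlow replicate 1 it was -0.0089, and with the 4 probe sets averaged it was 0.36. The other 3 probe sets ran from 1.79 to 3.52 over all arrays, below the bound throughout, with differences from -0.05 to 0.25. One of them, 1442827_at, separated the groups with CLP_RAGhigh higher, at 2.17 and 1.92 against 1.79 and 1.80.

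Tlr5, which binds flagellin, had values of 3.85 and 4.22 in CLP_RAGhigh and 3.85 and 4.85 in CLP_RAGlow, so that replicate 2 of each group exceeded the bound and replicate 1 did not. The difference was -0.32 ± 0.40, with a limma adjusted p of 1.

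Among the endosomal receptors, Tlr7, which binds single-stranded RNA, had the largest differences among the 15 probe sets, on 2 of its 3. Probe set 1449640_at had values of 6.15 and 7.02 in CLP_RAGhigh and 5.19 and 3.95 in CLP_RAGlow. Probe set 1419848_x_at had values of 6.13 and 6.81 in CLP_RAGhigh and 5.25 and 3.57 in CLP_RAGlow. On both, the CLP_RAGhigh arrays lay above the CLP_RAGlow arrays, and CLP_RAGlow replicate 2 was below the bound.

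The third and brightest Tlr7 probe set, 1422010_at, had values of 7.25 and 7.58 in CLP_RAGhigh and 6.02 and 7.48 in CLP_RAGlow. Here CLP_RAGlow replicate 1 was the low array and replicate 2 lay within the CLP_RAGhigh range, the opposite order of the CLP_RAGlow arrays to that on the other 2 probe sets. These 2 were designed from the same sequence record and are therefore not independent of each other, and the ending _x_at marks a set with probes that may bind other transcripts.

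In the fit of all 34945 probe sets, the Tlr7 differences were 2.01 ± 0.58 for 1449640_at (95% interval 0.52 to 3.51), 2.07 ± 0.66 for 1419848_x_at (0.37 to 3.76) and 0.67 ± 0.57 for 1422010_at (-0.80 to 2.13). With the offset of 32 they were 1.18, 1.13 and 0.51. The limma adjusted p over all probe sets was 1 for each, and 2 of the 15 receptor probe sets, both of Tlr7, had an unadjusted limma p under 0.05, where 4.8% of all probe sets did. In the fit of genes, which keeps the brightest set, Tlr7 differed by 0.67 ± 0.55 with a limma adjusted p of 1. This value was -0.06 without CLP_RAGlow replicate 1 and 1.58 with the probe sets averaged, and in no setting did Tlr7 pass the threshold of 0.05. The ratio of 3′ to 5′ Actb control probe sets, a measure of how far the signal favoured 3′ ends, was 16.2 and 9.62 in CLP_RAGhigh and 13.5 and 24.5 in CLP_RAGlow. CLP_RAGhigh replicate 2, with the lowest ratio, had the highest values of 1449640_at and 1419848_x_at, and CLP_RAGlow replicate 2, with the highest ratio, had the lowest. Between the replicate 1 arrays, CLP_RAGhigh had both the higher ratio and the higher values of these sets. On 1422010_at, CLP_RAGlow replicate 2 was at 7.48, within the CLP_RAGhigh range. The part of the ratio in the Tlr7 values was not tested.

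Tlr9, which binds unmethylated CpG DNA, had values of 5.06 and 5.66 in CLP_RAGhigh and 5.60 and 5.35 in CLP_RAGlow. The CLP_RAGlow values lay between the CLP_RAGhigh values. The difference was -0.12 ± 0.37, with a 95% interval from -1.04 to 0.80 and a limma adjusted p of 1.

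Tlr8, the neighbour of Tlr7 on the X chromosome with 0 genes between them, whose human counterpart binds RNA, ranged from 3.62 to 3.92 and was below the bound on all 4 arrays. Its difference was -0.04 ± 0.25. Tlr3, which binds double-stranded RNA, was also below the bound on all arrays with both probe sets. Probe set 1422782_s_at had values of 2.76 and 2.45 in CLP_RAGhigh and 3.39 and 2.98 in CLP_RAGlow, so that both CLP_RAGhigh arrays lay below. In the fit of genes it differed by -0.58 ± 0.23, which had the smallest limma adjusted p of the 9 receptors, 0.928, and leaving out single arrays gave -0.78 to -0.37. With the offset of 32 the difference was -0.11, and the other probe set, 1422781_at, differed by 0.13.

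Across the family, 0 of the 9 receptors passed a limma adjusted p of 0.05, where 0% of all genes passed in either direction. At an unadjusted limma p under 0.05, 0 receptors were higher in CLP_RAGhigh, against 2.35% of all genes, and 1, Tlr3, was lower, against 2.94%. The brightest probe sets of 0 receptors had both CLP_RAGhigh arrays on top, where 15.4% of all genes did, and that of 1 receptor had both below, where 15.8% did. Counted over the 15 probe sets, 3 were separated above and 1 below, against 15.5% and 15.2% of all probe sets, and 11 overlapped. The median difference of the 9 receptors was -0.10, and that of all genes 0.0028. With 2 arrays per group the 95% intervals spanned more than 1 log2 unit for every receptor gene, so that a p above the threshold does not show equal levels.

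**Figure D2:**
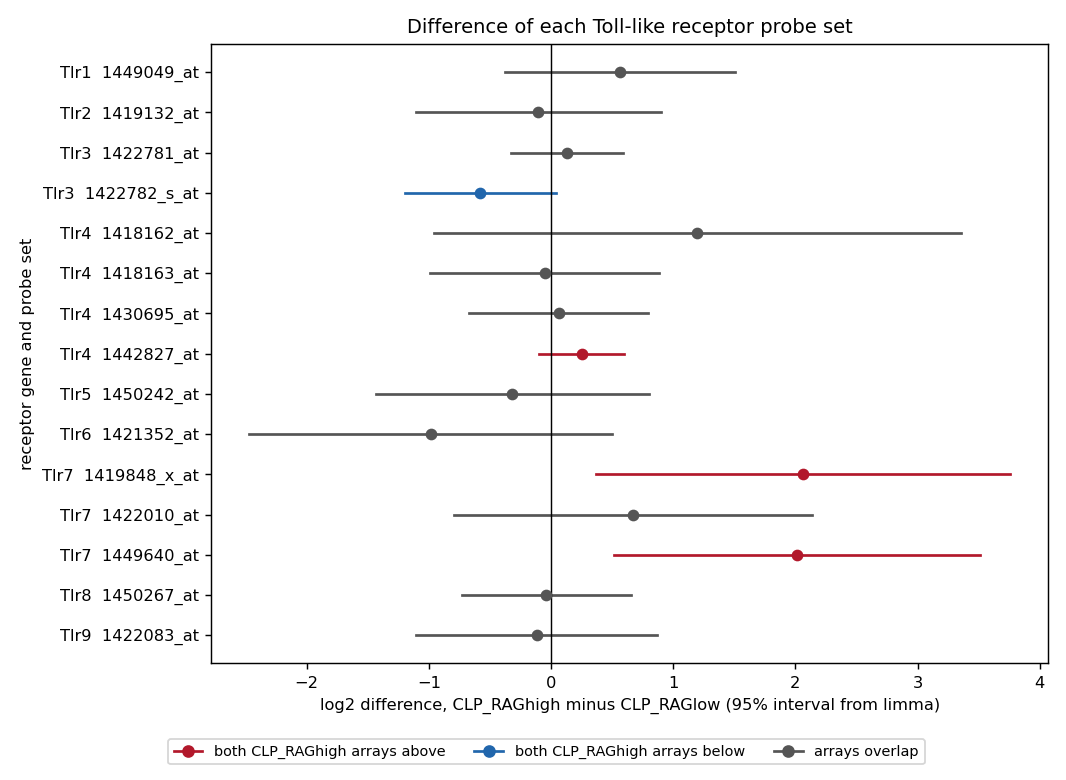
Log2 difference, CLP_RAGhigh minus CLP_RAGlow (horizontal axis), of the 15 receptor probe sets (rows) with 95% intervals from the limma fit of all probe sets. The 2 Tlr7 probe sets 1419848_x_at and 1449640_at have intervals above 0, from 0.37 to 3.76 and from 0.52 to 3.51, and those of the other 13 probe sets include 0.

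The label of the cells and the presence of other cell types were checked with markers, since several receptors are abundant in myeloid and dendritic cells. All 7 measured CLP markers, among them Il7r, Flt3, Kit and Dntt, were above the bound on every array, and Rag1, after which the groups are named, had means of 10.77 and 8.13. Of the 15 granulocyte and monocyte markers, 13 and 12 were above the bound on the CLP_RAGhigh arrays, and 12 and 6 on the CLP_RAGlow arrays. On every array 6 were above it, where 54% of all genes were, and 2 were above it on no array, where 35.2% were. The summed intensity of the 15 markers was 4460 and 4631 in CLP_RAGhigh and 6493 and 3414 in CLP_RAGlow. The neutrophil gene S100a8 had log2 intensities of 9.62 and 9.60 in CLP_RAGhigh, 10.15 on CLP_RAGlow replicate 1 and 3.81 on CLP_RAGlow replicate 2, while Itgam, a defining myeloid integrin, was at most 2.31. Mpo, the myeloperoxidase of early myeloid cells and granulocytes, was bright throughout, at 10.91 and 10.88 in CLP_RAGhigh and 10.70 and 11.03 in CLP_RAGlow. Csf1r, the receptor of macrophage colony-stimulating factor, was lower in CLP_RAGhigh, at 6.79 and 8.26 against 9.31 and 9.54, a difference of -1.90 ± 0.52. The differences of its 3 probe sets spanned -1.90 to -0.26 and averaged -1.25. Csf3r, the receptor of granulocyte colony-stimulating factor, was also lower, at 6.27 and 5.95 against 7.02 and 6.86, a difference of -0.83 ± 0.36. Neither gene passed. They were the 2 of the 15 markers separated below, and 2 were separated above (15.8% and 15.4% of all genes were). Those above were Elane and Fcgr3, with differences of 0.41 ± 0.30 and 0.40 ± 0.21. Fcgr3 was below the bound on all arrays, and Elane exceeded it on 1. In CLP_RAGhigh the mean was higher for 9 of the 15 markers and lower for 6. S100a9, Lcn2, Ltf, Camp and Ngp went with S100a8. Each was highest on CLP_RAGlow replicate 1 and lowest, below the bound, on CLP_RAGlow replicate 2. Ngp, for example, was at 9.01 and 9.72 in CLP_RAGhigh and 10.38 and 3.80 in CLP_RAGlow. Other genes of the list, among them Mpo, Csf1r and Csf3r, did not share this pattern. The part of the listed genes in the Tlr2 and Tlr4 values was not tested.

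For Tlr7 and Tlr9, which are abundant in plasmacytoid dendritic cells, the 8 measured markers of that cell type had summed intensities of 1166 and 2301 in CLP_RAGhigh and 2373 and 2551 in CLP_RAGlow. In CLP_RAGhigh the mean was higher for 2 of these markers and lower for 6, with 2 separated above and 3 below (15.4% and 15.8% of all genes were). Siglech, a defining gene, was 1 of the 2 separated above, at 5.10 and 5.25 in CLP_RAGhigh and 4.98 and 4.76 in CLP_RAGlow. The 3 separated below were Pacsin1, Cox6a2 and Bst2, with differences of -1.18 ± 0.25, -1.06 ± 0.43 and -0.90 ± 0.39. The part of the plasmacytoid dendritic cell markers in the Tlr7 and Tlr9 values was not tested. The mature B-cell markers, whose cells also carry Tlr7 and Tlr9, summed to 972.5 and 588.4 in CLP_RAGhigh and 418.2 and 428.3 in CLP_RAGlow. These sums separated in the direction of Tlr7 probe sets 1449640_at and 1419848_x_at, while the arrays overlapped on the brightest, 1422010_at. The brightest of these markers were Cd37, at 9.31 and 8.38 against 8.05 and 7.89, and Cd79b, at 8.18 and 7.74 against 6.84 and 7.22. The other measured ones were at most 4.60. Of 6 measured, 4 had a higher mean in CLP_RAGhigh, among them Cr2 by 0.008, and 2 a lower one. There were 3 separated above and 2 below (15.4% and 15.8% of all genes were). Those below were Ms4a1 and Fcer2a, with differences of -0.39 ± 0.22 and -0.16 ± 0.19, against the direction of the sums. Ms4a1, Fcer2a and Cr2, which define mature B cells, were below the bound on all arrays. The part of the B-cell markers in the Tlr7 values was not tested either. Macrophage markers were near background, with 5 of 7 below the bound on every array, where 35.2% of all genes were.

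**Figure D3:**
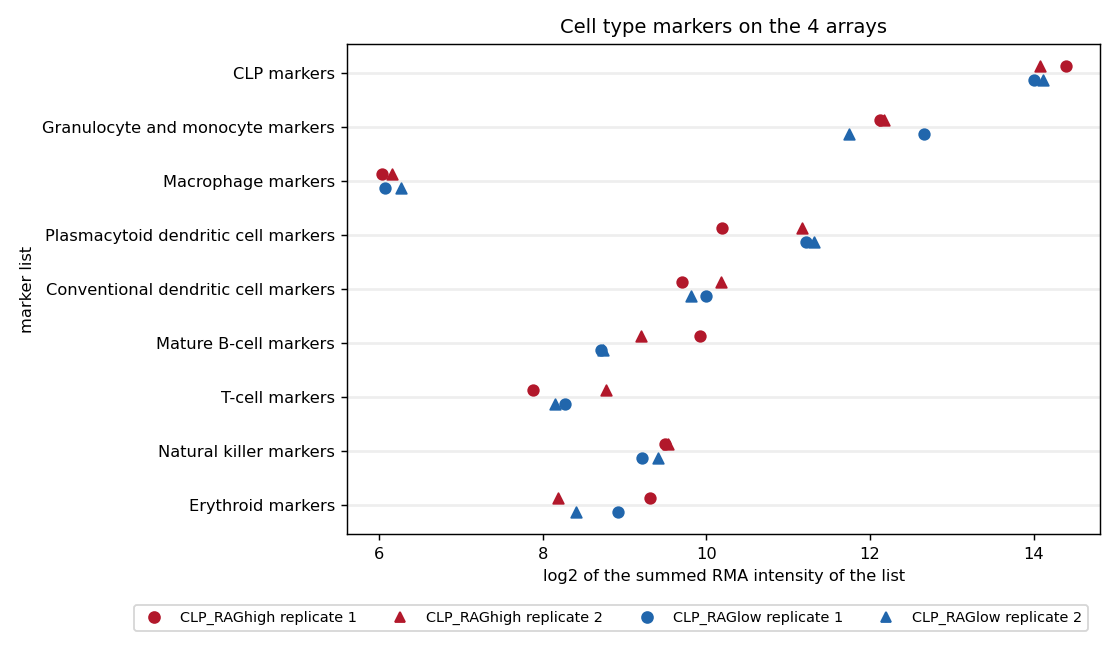
Log2 of the summed intensity (horizontal axis) of 9 lists of cell type markers (rows) on the 4 arrays, with CLP_RAGhigh in red and CLP_RAGlow in blue. CLP_RAGlow replicate 2 has the lowest sum of granulocyte and monocyte markers (3414) and CLP_RAGhigh replicate 1 that of plasmacytoid dendritic cell markers (1166).

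The proteins that help the receptors were then described from lists of the pathway. Among 10 measured co-receptors and accessory proteins, 2 were separated above and 2 below, and 0 passed. Over all genes 15.4% were separated above and 15.8% below, the shares to set beside the counts of each list. Ly86, which accompanies the receptor homologue Cd180 at the cell surface, had values of 9.73 and 9.80 in CLP_RAGhigh and 9.21 and 9.06 in CLP_RAGlow, a difference of 0.63 ± 0.23 (limma adjusted p = 0.922). Cd180 itself differed by -0.08 ± 0.43. Of the partners of Tlr4, Cd14, which hands lipopolysaccharide to the complex, differed by -0.03 ± 0.39 with overlapping arrays. Ly96, which holds the lipid, had values of 4.27 and 3.62 in CLP_RAGhigh and 4.31 and 4.65 in CLP_RAGlow, a difference of -0.54 ± 0.33 that was -0.21 without CLP_RAGhigh replicate 2.

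Trem1, a myeloid receptor that amplifies Toll-like receptor responses, had values of 9.54 and 8.58 in CLP_RAGhigh and 6.32 and 5.99 in CLP_RAGlow. The difference was 2.91 ± 0.44 (limma adjusted p = 0.334). It rested on probe set 1447284_at, since the other Trem1 probe set differed by 0.07. Grn, which carries CpG DNA to Tlr9, averaged 10.17 in CLP_RAGhigh and 10.67 in CLP_RAGlow, a difference of -0.50 ± 0.18 (limma adjusted p = 0.887).

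All 16 chaperone, trafficking and processing genes were measured, and 13 were above background in both groups, where 54% of all genes were. Unc93b1, which escorts the nucleic acid receptors to endosomes, had values of 8.88 and 8.49 in CLP_RAGhigh and 8.64 and 8.66 in CLP_RAGlow, with a difference of 0.03 ± 0.29. The median difference of the list was -0.02, with 2 genes separated above and 4 below (15.4% and 15.8% of all genes were). Rab7b, a small GTPase of late endosomes, differed by -0.99 ± 0.43, Lrrc59 by -0.61 ± 0.35 (-0.17 without CLP_RAGhigh replicate 2) and Ap3b1, an adaptor subunit for endosomal sorting, by 0.45 ± 0.28, and 0 passed.

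All 5 measured adaptors were above background in both groups, where 54% of all genes were. Myd88 had values of 8.45 and 7.58 in CLP_RAGhigh and 8.16 and 8.19 in CLP_RAGlow, with a difference of -0.16 ± 0.40. Ticam1, the adaptor of Tlr3, had both CLP_RAGhigh arrays above, with a difference of 0.46 ± 0.33. Tirap, which bridges Tlr2 and Tlr4 to Myd88, was at 5.46 on CLP_RAGhigh replicate 1 and between 7.67 and 7.72 on the other arrays, and its difference of -1.14 was -0.037 without that array. The differences of its 2 probe sets were -1.14 and 0.50. Pik3ap1, an adaptor to phosphoinositide signalling, was likewise lowest on CLP_RAGhigh replicate 1, at 4.84, and differed by -0.97 ± 0.69, which was -0.013 without that array. Of the adaptors, 0 passed.

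Kinases and ubiquitin ligases downstream of the receptors had a median difference of 0.24 over 17 measured genes. Of these, 12 had a higher mean in CLP_RAGhigh, as 9202 of all 18193 genes did. There were 6 separated above and 1 below, against 15.4% and 15.8% of all genes, and 0 passed. Ikbkb, the catalytic kinase of NF-kappaB activation, had values of 9.81 and 9.32 in CLP_RAGhigh and 8.12 and 8.46 in CLP_RAGlow, a difference of 1.28 ± 0.31 (limma adjusted p = 0.703). The differences of its 5 probe sets spanned -0.16 to 1.28 and averaged 0.24. Peli1, a ubiquitin ligase acting with the Irak kinases, differed by 1.03 ± 0.38 and by 0.85 with 5 probe sets averaged. Irak2, a kinase of the complex around Myd88, differed by 0.87 ± 0.35 (0.37 with the offset of 32).

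Inhibitors of the pathway had a median difference of 0.06 over 15 measured genes, with 6 separated above and 3 below, against 15.4% and 15.8% of all genes, and 0 past the threshold. Sigirr, a receptor that restrains Toll-like and interleukin-1 receptor signalling, had values of 9.42 and 9.96 in CLP_RAGhigh and 8.37 and 8.48 in CLP_RAGlow. The difference was 1.27 ± 0.30 (95% interval 0.53 to 2.01, limma adjusted p = 0.666), and it has 1 probe set. Irak3, which blocks the active Irak kinases, had values of 6.36 and 5.85 in CLP_RAGhigh and 4.22 and 4.96 in CLP_RAGlow, a difference of 1.51 ± 0.41 (limma adjusted p = 0.769). Its 2 probe sets disagreed, at -0.08 and 1.51. Tifab, an inhibitor of Traf6 signalling, differed by 1.18 ± 0.43, with both of its probe sets higher in CLP_RAGhigh.

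Of 13 transcription factors at the end of the pathway, 10 had a higher mean in CLP_RAGhigh, 4 were separated above and 1 below (15.4% and 15.8% of all genes were), and 0 passed. Irf8, which also drives dendritic cell development, had means of 10.29 and 10.94, a difference of -0.65 ± 0.26 (limma adjusted p = 0.928). Fos and Relb differed by 3.48 ± 1.67 and 1.36 ± 0.66, and both were highest on CLP_RAGhigh replicate 1, at 12.27 and 5.12. Without that array their differences were 0.91 and 0.30.

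Of the genes that receptor stimulation induces, 15 were measured. Of these, 8 were above background in both groups, where 54% of all genes were. A further 6, among them Il6, Il12b, Cxcl10 and Ifnb1, were below the bound on every array, where 35.2% of all genes were. Only 1 was separated above and 0 below, where 15.4% and 15.8% of all genes were, and 0 passed. Tnf had values of 5.86 and 5.88 in CLP_RAGhigh and 5.58 and 5.18 in CLP_RAGlow, with a difference of 0.49 ± 0.35. Cd40 and Ifnb1 differed by 0.35 ± 0.31 and 0.23 ± 0.20.

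Over the 104 measured genes of the 9 pathway lists beside the receptors, 58 were higher in mean in CLP_RAGhigh and 46 lower. There were 25 separated above and 13 below (15.4% and 15.8% of all genes were), 0 passed with limma, and 12 had an unadjusted limma p under 0.05, of which 9 were higher and 3 lower, where 2.35% and 2.94% of all genes were. Their median difference was 0.06.

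**Figure D4:**
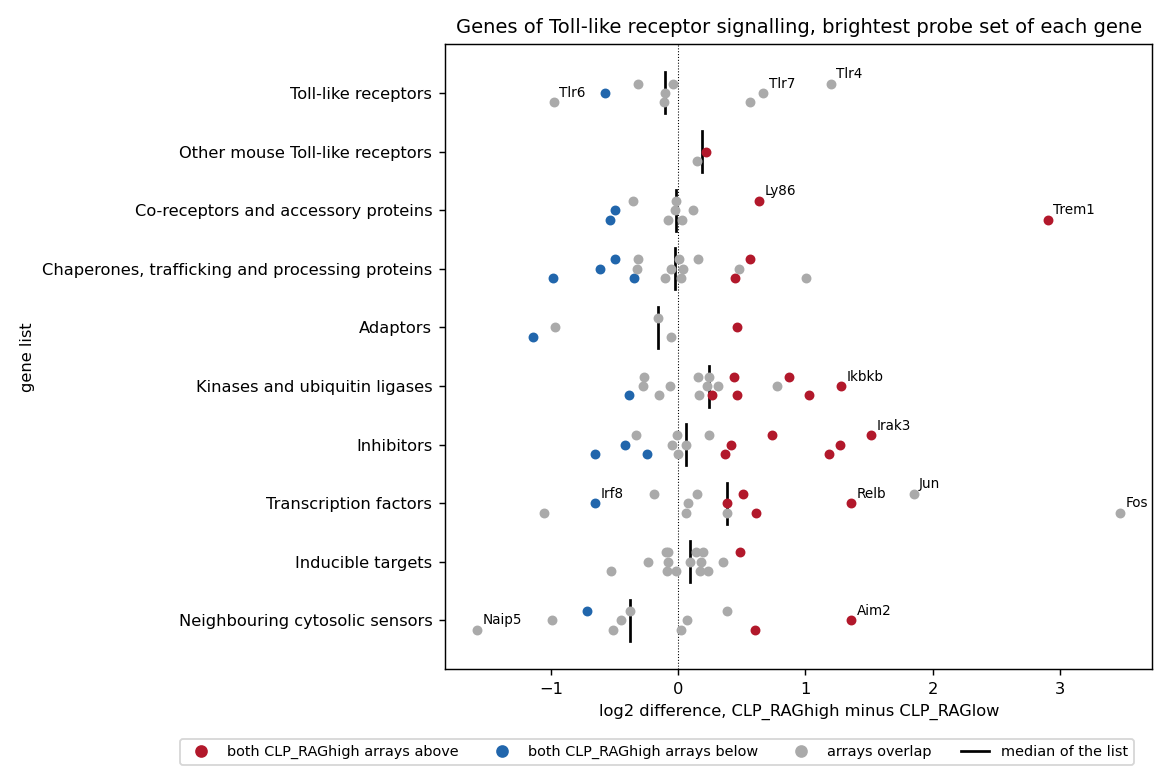
Log2 difference, CLP_RAGhigh minus CLP_RAGlow (horizontal axis), of each measured gene of the receptor family and 9 pathway lists (rows), from the brightest probe set of each gene, with the list median as a black bar. Red points have both CLP_RAGhigh arrays above both CLP_RAGlow arrays and blue points both below, and medians lie between -0.38 (cytosolic sensors) and 0.38 (transcription factors).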

How the data were processed

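RNA of 4 samples was measured on Affymetrix MOE430_2 arrays. According to the labels' design text, the deposited intensity values were computed by RMA, which corrects background, normalizes between arrays and summarises each probe set. Software version and genome build were not given in the sources used here. The deposited intensities are on a linear scale, from 2.35 to 19893, and log2 was taken. Low RMA values are compressed toward background, which shrinks differences of dim probe sets. Amplification from few cells favours 3′ ends. The ratio of 3′ to 5′ Actb control probe sets was 9.62 to 24.5, and what set it on each array was not tested. Median intensities were 14.5 to 14.8. Precision is limited by having 2 arrays per group.

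Of 45101 rows, 64 controls were left out, and 932 probe sets with several genes and 9160 with none were not used. The brightest probe set per gene (highest mean over the 4 arrays) entered a fit of 18193 genes, and all 34945 probe sets a second fit. Both used limma 3.58.1 in R 4.3.3 (lmFit, eBayes with trend, two-sided) with 2 residual and 3.75 prior degrees of freedom (fit of genes), Benjamini-Hochberg adjustment over the whole table and a threshold of 0.05. The fit of genes was also run on simulated data with planted changes larger than any receptor difference. That run does not show the power of the fit at the sizes reported here. Alternatives were averaged probe sets, no _x_at or _s_at sets, an offset of 32, no dim genes, another normalization, no trend, a replicate block and leaving out each array. The members, lists and motifs were chosen with earlier results of these data known. Lists held 116 pathway genes beside the receptors, of which 104 were measured and the rest are not analysed here. Named are all receptors, up to 3 genes per list with the smallest p, Myd88, Ticam1, Unc93b1, Cd14, Ly96, Cd180 and Ly86, the genes closest to 1 receptor, and Rag1. S100a8, Itgam, Siglech and other markers and list members outside this rule were named after their values were seen. Figures were drawn with matplotlib 3.10.9.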

Additional observations from a re-analysis of the deposited data

How the results depend on the processing

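Over 105 values of the 9 receptor genes under 12 alternatives, 96 kept their direction, 9 turned and 0 passed the threshold, with a lowest limma adjusted p of 0.552. Without _x_at and _s_at probe sets the Tlr3 difference turned to 0.133, because its other probe set was then used. The other turns came from leaving out 1 array, where the differences ranged from -0.46 to 0.25 for Tlr2, -0.0089 to 2.40 for Tlr4, -0.82 to 0.19 for Tlr5, -0.061 to 1.40 for Tlr7 (its probe set 1422010_at), -0.18 to 0.10 for Tlr8 and -0.42 to 0.18 for Tlr9. Of the other named genes, turns were seen for Tlr13 (-0.057 to 0.36), Unc93b1 (-0.16 to 0.23), Cd14 (-0.37 to 0.31), Cd180 (-0.52 to 0.37) and Myd88 (-0.59 to 0.27). Of the 30 genes that did not turn, 19 moved by over 1.5 times without 1 array, none of them past the threshold, among them Rab7b (-1.45 to -0.52), Irf8 (-0.94 to -0.36), Irak2 (0.52 to 1.22), Tifab (0.72 to 1.64) and Aim2 (0.80 to 1.92). The Tlr7 probe sets 1449640_at and 1419848_x_at ranged from 1.39 to 2.64 and from 1.23 to 2.90 when 1 array was left out. Receptor probe sets above the bound on all arrays numbered 3, and 3 to 5 when 1 array was left out. With the 99th percentile as bound there were 2, Tlr9 dropping out. Over all genes the count past an adjusted p of 0.05 was 0, with 963 at an unadjusted limma p under 0.05. It was 2 with probe sets averaged, 1 without dim genes and 3 after a further quantile normalization, and 0 of the 41 genes recomputed under these settings (the receptors, the named list genes and Rag1) passed in any. The replicate numbers of the labels are not said to pair samples, and the deviations of same-numbered arrays correlated at -0.025 over genes. With the replicate number as a block, 7 genes passed, none of them a receptor or a gene of the pathway lists.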

Other observations

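Sensors outside the receptor family were looked at for comparison, over 11 measured genes, of which 2 were separated above and 1 below, where 15.4% and 15.8% of all genes were, and 0 passed with limma. Aim2, a cytosolic sensor of double-stranded DNA, had log2 intensities of 5.87 and 5.42 in CLP_RAGhigh and 3.73 and 4.85 in CLP_RAGlow, a difference of 1.36 ± 0.46 (SE, limma adjusted p = 0.886). Cgas, which answers the same ligand by making a cyclic dinucleotide, went the other way, at 8.70 and 8.52 against 9.12 and 9.54, with a difference of -0.72 ± 0.29 (limma adjusted p = 0.928). Its 2 probe sets ran from -0.72 to 0.25. Clec7a, a receptor of fungal glucans, differed by 0.60 ± 0.22 and was below the bound on every array.

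Of the mouse receptors beyond Tlr9, Tlr12 separated the groups on its brightest probe set, at 4.45 and 4.48 against 4.18 and 4.33, close to the background bound, and a difference of 0.21 ± 0.27. Tlr13, an endosomal sensor of bacterial ribosomal RNA, was below the bound on all arrays, between 2.40 and 2.94.

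In the fit of genes on their brightest probe sets, Tlr4 was the receptor with the smallest limma p among those above background in a group. It was compared over the 4 arrays with the 11575 genes whose mean lay above the median of all log2 values. By the distance of mean-centred log2 values, the closest of these were Nvl (0.259), Gpr89 (0.262) and Aspm (0.301). All 3 were lowest on CLP_RAGlow replicate 1, and 8 genes lay within 0.5.

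Some deposited values were identical on 2 arrays to the last decimal, for 336 to 525 of 45037 probe sets per pair of arrays. Among the receptors, Tlr3 probe set 1422781_at had 1 value on both CLP_RAGlow arrays, and Tlr5 had 1 value on replicate 1 of both groups.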
